A study of Mus musculus with 2 samples.

Results

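The mRNA tailing, decay and poly(A)-binding machinery was followed in washed platelets of mice with and without Smad4. Members were all genes whose symbol in the array annotation belongs to one of the following families: terminal nucleotidyltransferases and poly(A) polymerases, poly(A)-binding proteins, CCR4-NOT and PAN2-PAN3 subunits, BTG and TOB proteins, exosome subunits, decapping factors, XRN exonucleases, LSm proteins, Ddx6, UPF and SMG factors, Argonautes, TNRC6 proteins, Dicer1 and the ZFP36 family. The rule reads gene symbols. It gave 81 genes with 194 probe sets, out of 18193 annotated genes on the array. The tested animals, Smad4 −/−, are C57BL/6 mice whose loxP-flanked Smad4 is removed by a Cre recombinase under the PF4 promoter, so the deletion acts in megakaryocytes and the platelets they shed. Their controls, Smad4 f/f, are C57BL/6 mice with the loxP-flanked gene, described as wild type and control. The study gives a number of 6 for each genotype, taken here as mice, and 1 array stands for each genotype. Whether the arrays carry RNA pooled over mice is not stated. No difference below has a replicate check and no test was run, since precision is limited by having 1 array a group.

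The poly(A) tail of an mRNA is made in the nucleus by poly(A) polymerase, coated by poly(A)-binding proteins and shortened in the cytoplasm by the PAN2-PAN3 and CCR4-NOT deadenylases. A shortened tail lets the LSm ring and the decapping enzyme act, after which XRN1 digests the body from the 5′ end or the exosome digests it from the 3′ end. Platelets have no nucleus and live on the mRNA that the megakaryocyte gave them, so the stability of those mRNAs bears on what remains in them.

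Values are signals of probe sets on a 3′ expression array, linear unless called log2. A signal floor was set at the 60th percentile of all probe sets that are not controls, a linear signal of 145 or 7.18 on the log2 scale. Members with no probe set at or above it on either array were taken as not measured, and 69 of the 81 were measured. A ratio is always Smad4 −/− over Smad4 f/f after values below the floor were raised to it, so where 1 side lies below the floor the ratio is a lower bound, given as at least that size. Each gene is given by 1 chosen probe set, the strongest measured one (probe sets ending in _x_at, which can cross-hybridise, only in want of another), and levels of different probe sets cannot be set against each other. The log2 ratios of probe sets of the same gene scattered with a pooled SD of 0.48 over 4252 genes, which serves as a technical yardstick and holds no spread between animals or arrays.

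The targeted gene read 894 in Smad4 −/− and 949 in Smad4 f/f by its strongest probe set, a log2 ratio of −0.09, with −0.12 and −0.13 for its other probe sets. Where these probe sets lie relative to the deleted part was not analysed here, so they check nothing about the genotype, and the labels state that the loss of the protein was seen by Western blot. All 11 listed platelet markers that the array holds were above the floor on both arrays, with log2 ratios from −0.11 to 0.43. RNA quality was read from control probe sets as the ratio of 3′ to 5′ signal. It was 2.61 in Smad4 −/− and 1.86 in Smad4 f/f for Gapdh, and 1.27 in Smad4 −/− and 1.16 in Smad4 f/f for beta-actin. The part of RNA quality in the values below was not tested. Fewer cells of a type and less RNA per cell cannot be told apart in these bulk samples.

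Most members had a log2 ratio within the technical yardstick. Past 2-fold on the Smad4 −/− side lay 2 of the 69 measured members, where 3.34% of all 11380 measured genes did, and past 2-fold on the lower side lay 2, where 3.59% of all measured genes did. The 4 members past 2-fold make 5.80% of those measured, against 6.93% of all measured genes, a share near the background. They were Tent5c and Lsm1 on the higher side and Lsm14a and Btg4 on the lower side. The ratios of 13 members are bounds whose full size is unknown. With no floor 4 members lie past 2-fold on the higher side, with Cnot3 and Exosc9 added, and 5 on the lower side, with Dicer1, Smg5 and Zfp36 added. At 1.5-fold the count was 8 members higher (11.6%, with 11.6% of all measured genes) and 6 lower (8.70%, with 13.4% of all measured genes). The median log2 ratio of the members was −0.04, with 33 above 0 and 36 below, beside −0.02 over all measured genes. The log2 ratio was within the yardstick of 0.48 for 46 members (66.7%, against 66.1% of all measured genes). The role groups below hold 3 to 11 measured genes, so 0 past 2-fold in a group lies near the background of 6.93%.

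**Figure D1:**
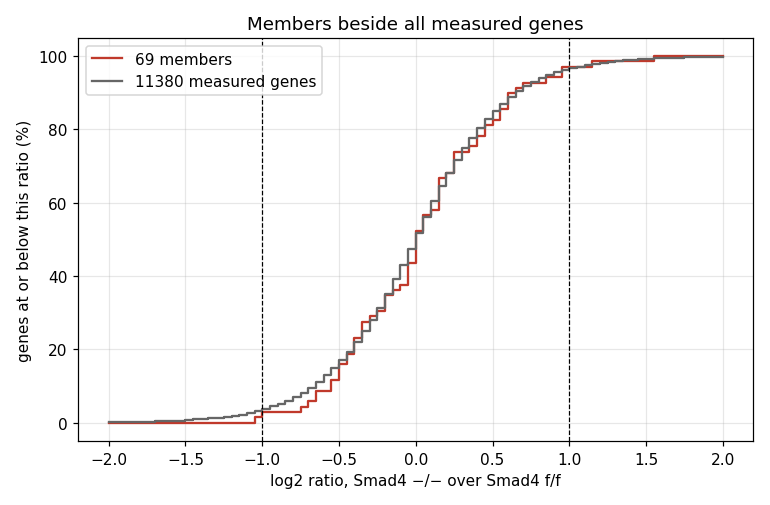
Cumulative share of genes (percent, y axis) at or below each log2 ratio of Smad4 −/− over Smad4 f/f (x axis) for the 69 measured members in red and all 11380 measured genes in grey, with dashed lines at 2-fold. The curves run close to each other, with medians of −0.04 and −0.02.

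**Figure D2:**
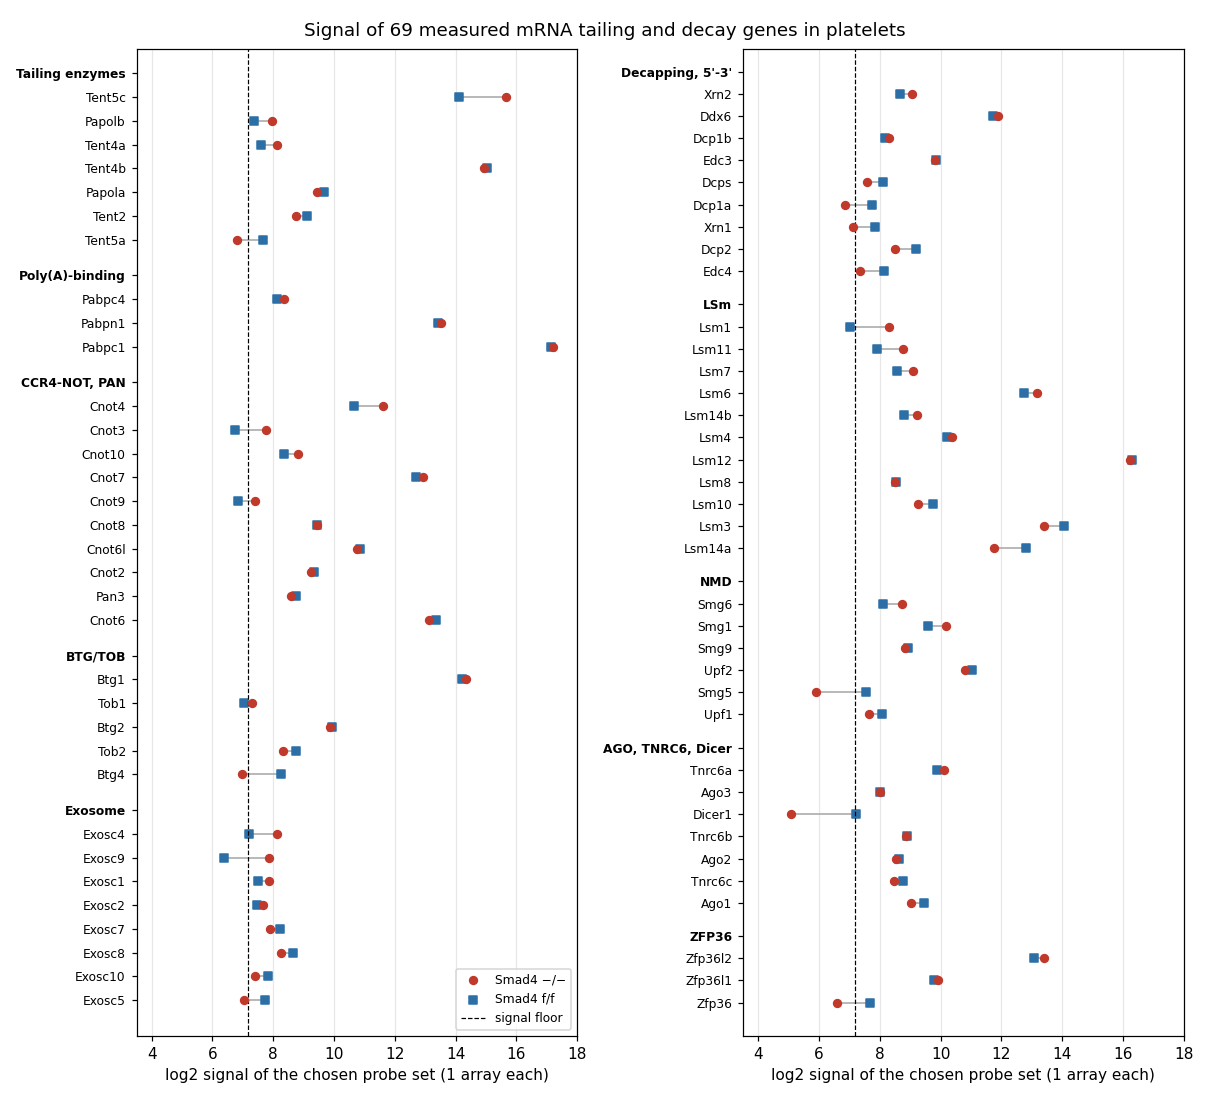
Log2 signal (x axis) of the chosen probe set of each measured member on the Smad4 −/− array (red circles) and the Smad4 f/f array (blue squares), 1 array each, by role and in order of ratio, with the signal floor dashed. The widest gap among members with both signals above the floor is that of Tent5c, 51224 in Smad4 −/− against 17577 in Smad4 f/f.

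Agreement between probe sets of the same gene gives a second reading. Of the 69 members, 38 had more than 1 measured probe set, and in 15 of them (39.5%, against 47.6% of all such genes) every measured probe set pointed the same way. A mean log2 ratio of at least 0.5 with all probe sets in agreement was met by 4 members on the higher side (10.5%, with 7.34% of all such genes) and by 4 on the lower side (10.5%, with 8.00% of all such genes). Those higher in Smad4 −/− were Tent5c, Cnot3, Lsm11 and Smg1, and those lower were Cnot2, Lsm14a, Tnrc6c and Xrn1. For Cnot3 and Xrn1 every measured probe set lay below the floor on 1 array, so each could only point toward the other array. Their agreement is therefore not a second reading. The other 31 members rest on 1 measured probe set each.

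**Figure D3:**
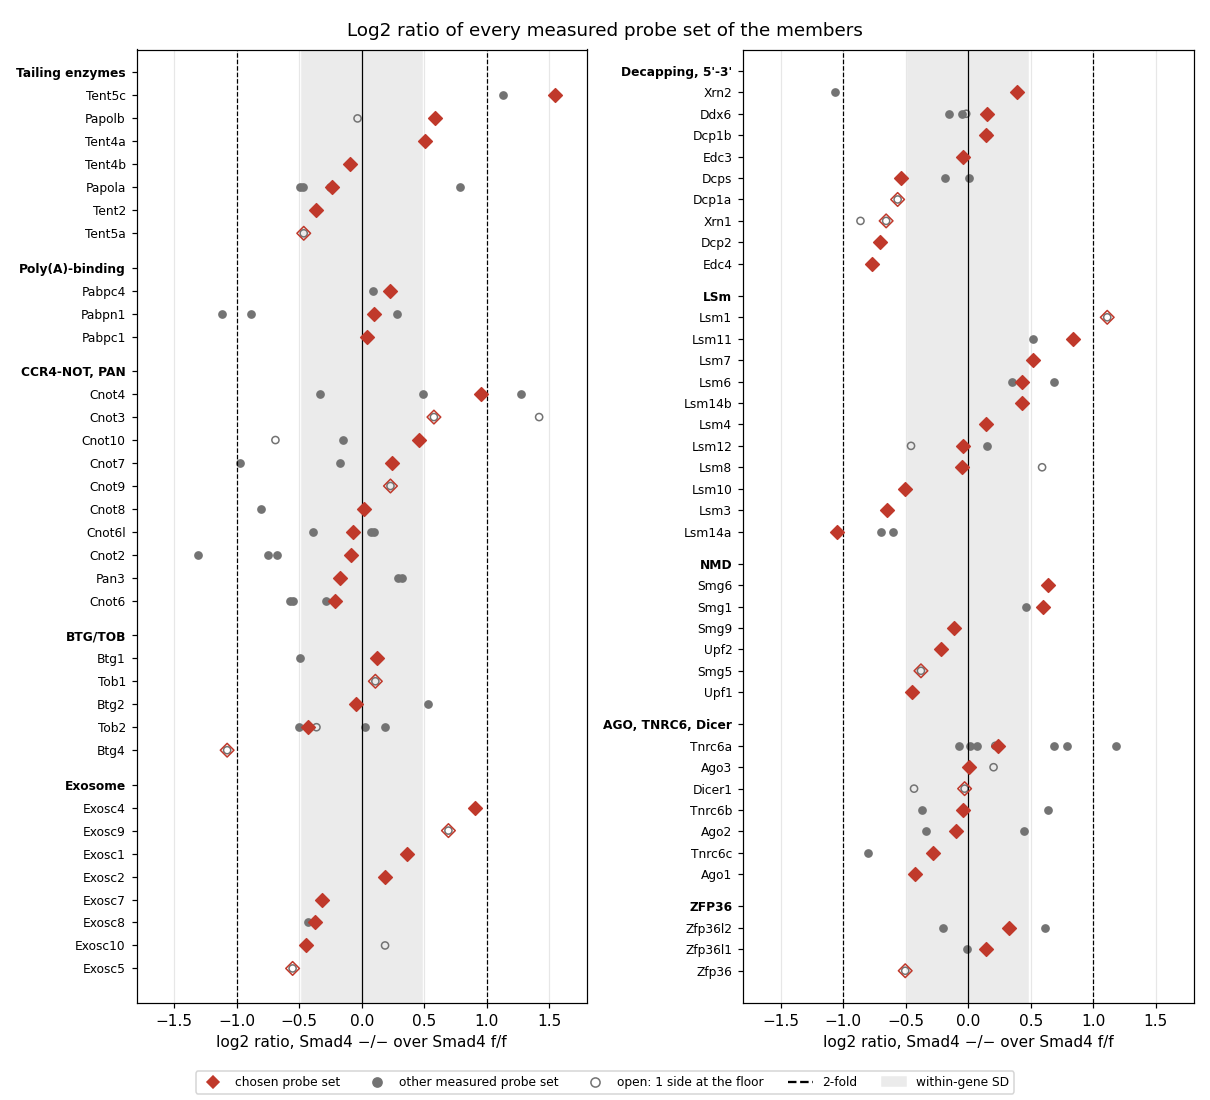
Log2 ratio of Smad4 −/− over Smad4 f/f (x axis) for every measured probe set of each measured member by role, with the chosen probe set as a red diamond, the others as grey circles, open symbols where 1 side is at the floor, dashed lines at 2-fold and a grey band at the within-gene SD of 0.48. Both Tent5c probe sets lie beyond 2-fold on the higher side, at 1.13 and 1.54, and all 3 of Lsm14a lie on the lower side, from −1.05 to −0.60.

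Tent5c was the member with the highest ratio at the floor used and with no floor. It encodes a cytoplasmic poly(A) polymerase, earlier called Fam46c, which lengthens the tails of mRNAs that encode secreted proteins and acts as a tumour suppressor in plasma cells. Its stronger probe set read 51224 in Smad4 −/− and 17577 in Smad4 f/f, 2.91-fold higher. The weaker one read 918 in Smad4 −/− and 419 in Smad4 f/f, 2.19-fold higher. Both therefore passed 2-fold in the same direction, well above the floor.

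The other tailing enzymes had ratios on both sides of even. Of 7 measured members of this group, Tent5c was the only one past 2-fold, 3 had ratios above 0, and the median log2 ratio was −0.09 (0.13 with the floor at the 50th percentile). Tent4b, which tails nuclear RNAs and marks them for trimming, read 31349 in Smad4 −/− and 33460 in Smad4 f/f, a log2 ratio of −0.09 by its 1 probe set. Its paralog Tent4a had a log2 ratio of 0.51, with 276 in Smad4 −/− and 194 in Smad4 f/f. Tent5a, another enzyme of the TENT5 family, had the lowest ratio of the group, at least 1.38-fold lower, with 113 in Smad4 −/−, below the floor, and 200.2 in Smad4 f/f. Tent2, a cytoplasmic polymerase of the GLD-2 type that also adds single adenosines to microRNAs, had a log2 ratio of −0.36. The canonical nuclear polymerase gene Papola had 5 measured probe sets with log2 ratios from −0.50 to 0.79 and −0.24 for the chosen one, and its testis paralog Papolb, on the same side as Tent5c and Tent4a by the chosen probe set, had 0.58 and, with Smad4 −/− below the floor, −0.03. Tent5b and Papolg lay below the floor on both arrays.

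The promoters of Tent5c and Lsm14a are shown because these were the members past 2-fold with every measured probe set above the floor on both arrays and pointing 1 way. They are the 250 bases before the annotated start of each gene, from RefSeq (GRCm38.p6), 5′ to 3′ on the minus strand, at chr3:100489193-100489442 for Tent5c and chr7:34389706-34389955 for Lsm14a. Capitals mark letters of 3 motifs that SMAD proteins are known to bind, searched on both strands with overlaps kept. They are CAGAC, a form of the SMAD box, and the GC-rich motifs GGCGC and, sharing letters with it, GGCCG. Shorter forms of the SMAD box were not searched.
Tent5c: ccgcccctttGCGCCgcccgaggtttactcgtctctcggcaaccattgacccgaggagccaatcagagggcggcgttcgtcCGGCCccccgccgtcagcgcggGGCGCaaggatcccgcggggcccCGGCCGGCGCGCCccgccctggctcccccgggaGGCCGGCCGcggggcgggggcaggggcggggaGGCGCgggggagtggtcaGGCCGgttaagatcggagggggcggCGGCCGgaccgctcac
Lsm14a: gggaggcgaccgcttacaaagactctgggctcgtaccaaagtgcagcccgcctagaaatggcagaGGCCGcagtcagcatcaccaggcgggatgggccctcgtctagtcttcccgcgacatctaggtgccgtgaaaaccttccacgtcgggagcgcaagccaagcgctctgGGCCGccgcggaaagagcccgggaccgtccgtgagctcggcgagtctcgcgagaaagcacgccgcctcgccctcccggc
CAGAC was found 0 times in either window, and 42.2% of all 32851 windows of this length hold it. GGCGC was found 5 times for Tent5c and 0 times for Lsm14a, with 32.0% of all windows holding it, and GGCCG 9 times for Tent5c and 2 times for Lsm14a, with 30.4% of all windows holding it. The Tent5c window is 78.8% G and C and that of Lsm14a 66.4%, against a median of 52.4% over all windows, so GC-rich letters are frequent in both. A match is a description of the sequence and not a binding site.

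The transcripts of the tail-coating proteins were close to even by their chosen probe sets. Pabpc1, the main cytoplasmic poly(A)-binding protein, read 149325 in Smad4 −/− and 144764 in Smad4 f/f, a log2 ratio of 0.04 that becomes −0.02 after quantile normalisation. Pabpc4, its inducible relative, had a log2 ratio of 0.23, with 324 in Smad4 −/− and 276 in Smad4 f/f. Pabpn1, the nuclear protein that sets tail length during synthesis, read 11654 in Smad4 −/− and 10907 in Smad4 f/f, a log2 ratio of 0.10. Its 4 probe sets were split: the 2 strong ones gave 0.10 and 0.28, and the 2 weak ones gave −0.88 and −1.11, so that their mean was −0.41. Pabpc2, Pabpc5 and Pabpc6 lay below the floor on both arrays.

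Among the deadenylases, no subunit was called past 2-fold by its chosen probe set, where 6.93% of all measured genes were. Ratios above 0 were seen for 6 of 10 measured. The median log2 ratio was 0.13, but −0.10 with the mean of all probe sets and −0.03 without probe sets ending in _s_at or _x_at. Cnot4, the RING ubiquitin ligase that associates with the complex, had the highest ratio at the floor used, with 3129 in Smad4 −/− and 1620 in Smad4 f/f, 1.93-fold higher. Its 4 probe sets ranged from −0.33 to 1.27 on the log2 scale. Cnot3, a scaffold subunit, was at least 1.49-fold higher by its chosen probe set (217 in Smad4 −/− and 107 in Smad4 f/f) and at least 2.67-fold higher by the other (388 in Smad4 −/− and 29.4 in Smad4 f/f), with the Smad4 f/f signal below the floor in both. With no floor the chosen probe set of Cnot3 gives a log2 ratio of 1.02, above the log2 ratio of 0.95 of Cnot4, so their order depends on the floor.

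Cnot2, which pairs with Cnot3 in the NOT module of the complex, pointed the other way. Its 4 measured probe sets gave log2 ratios of −0.09, −0.68, −0.75 and −1.31, with a mean of −0.71. The chosen one, at −0.09, read 605 in Smad4 −/− and 642 in Smad4 f/f, and the value is −1.31 without probe sets ending in _s_at or _x_at. The choice of probe set therefore decides how far Cnot2 lay from even.

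The catalytic subunits differed between probe sets. Cnot6, a nuclease of the CCR4 type, had all 4 probe sets lower in Smad4 −/−, from −0.58 to −0.22, with 8962 in Smad4 −/− and 10413 in Smad4 f/f for the strongest. It had the lowest chosen ratio of the group, and its mean over probe sets was −0.41. Its paralog Cnot6l had a log2 ratio of −0.07, and the CAF1-type nucleases Cnot7 and Cnot8 had 0.24 and 0.02 by their chosen probe sets, while another probe set gave −0.98 for Cnot7 and −0.81 for Cnot8. Pan3, which recruits the PAN2 nuclease, had −0.17. Cnot9 was at least 1.17-fold higher, Cnot10 had 0.46, and Cnot11 and Pan2 lay below the floor on both arrays.

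BTG and TOB proteins bring the CAF1 nucleases to target mRNAs and slow proliferation. Btg4, known for clearing maternal mRNA in the egg, was at least 2.11-fold lower, with 126 in Smad4 −/−, below the floor, and 306 in Smad4 f/f by its 1 probe set. With the floor at the 75th percentile its log2 ratio is −0.23. Btg1 was close to even by the chosen probe set, with 20647 in Smad4 −/− and 18933 in Smad4 f/f, a log2 ratio of 0.12, while its other probe set gave −0.49 and the mean of both is −0.18. Btg2, also an immediate early gene, had −0.05 and 0.53, Tob1 was at least 1.08-fold higher with Smad4 f/f below the floor, and Tob2 had −0.43 with 5 probe sets from −0.50 to 0.18. None of the 3 members with several measured probe sets had them in agreement.

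The decapping and 5′-to-3′ decay group held the lowest median at the floor used. Over its 9 measured genes the median log2 ratio was −0.54, beside −0.02 for all measured genes, with 6 below 0. Past 2-fold lay 0 of the 9, where 6.93% of all measured genes did. The median is the value of Dcps. It was −0.34 with the mean of probe sets, within the yardstick, and −0.03 with the floor at the 75th percentile. Edc4, the scaffold of the decapping complex, was 1.70-fold lower, with 164 in Smad4 −/− and 279 in Smad4 f/f. Dcp2, the decapping enzyme itself, was 1.63-fold lower, with 361 in Smad4 −/− and 590 in Smad4 f/f. Its activator Dcp1a was at least 1.48-fold lower, with 117 in Smad4 −/−, below the floor, and 215 in Smad4 f/f. Each of these 3 genes rests on 1 measured probe set.

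Xrn1, the cytoplasmic exonuclease that follows decapping, lay on the same side by both of its probe sets. They read 138 and 43.7 in Smad4 −/−, both below the floor, against 229 and 264 in Smad4 f/f, at least 1.58-fold and 1.82-fold lower. With the floor at the 75th percentile the log2 ratio of Xrn1 is −0.02. Dcps, which clears cap remnants left by the exosome, had −0.54, with other probe sets at −0.19 and 0.0038.

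Other members of this group lay close to even or had probe sets on both sides. Ddx6, the helicase that joins silencing complexes to decapping, had 3773 in Smad4 −/− and 3404 in Smad4 f/f, a log2 ratio of 0.15, while its other 3 probe sets were below 0, down to −0.16. Dcp1b had 0.14 and Edc3 −0.04. Xrn2, the nuclear paralog of Xrn1, had the highest chosen ratio, 0.39 (530 in Smad4 −/− and 404 in Smad4 f/f), but −1.07 by its other probe set (213 in Smad4 −/− and 445 in Smad4 f/f), so the sign of its mean, −0.34, is opposite.

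LSm proteins form rings on short tails and on small nuclear RNAs, and this group held a member past 2-fold on either side. Of 11 measured, 6 had ratios above 0 and the median log2 ratio was 0.15. Lsm14a, a translational repressor of P-bodies that binds Ddx6, was 2.07-fold lower by the chosen probe set, with 3437 in Smad4 −/− and 7106 in Smad4 f/f. Its other probe sets read 3882 and 1869 in Smad4 −/−, against 5887 and 3036 in Smad4 f/f, log2 ratios of −0.60 and −0.70. The mean of the 3, −0.78, is short of 2-fold, as is −0.60 without probe sets ending in _s_at or _x_at. Its paralog Lsm14b had a log2 ratio of 0.43 by 1 probe set.

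Lsm1, the subunit that sets the cytoplasmic decay ring apart from the nuclear one, was at least 2.16-fold higher, with 314 in Smad4 −/− and 130.2 in Smad4 f/f, below the floor. That value rests on 1 measured probe set, and with the floor at the 75th percentile the log2 ratio is 0.27. The other Lsm1 probe set, below the floor on both arrays, read 54.2 in Smad4 −/− and 132 in Smad4 f/f, the opposite direction. Lsm8, which takes the place of Lsm1 in the nuclear ring, had −0.05 by its chosen probe set and at least 0.59 by the other. Subunits that both rings share went different ways. Lsm6 was higher by all 3 probe sets, from 0.35 to 0.68, with 9321 in Smad4 −/− and 6924 in Smad4 f/f for the strongest. Lsm7 had 0.52 and Lsm4 0.15, whereas Lsm3 read 10921 in Smad4 −/− and 17152 in Smad4 f/f, 1.57-fold lower by its 1 probe set. Lsm2 lay below the floor on both arrays.

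Lsm10 and Lsm11 belong to the U7 particle that cuts histone pre-mRNA, which carries no poly(A) tail. Lsm11 read 431 and 252 in Smad4 −/−, against 241 and 176 in Smad4 f/f by its 2 probe sets, log2 ratios of 0.84 and 0.52. Lsm10 had −0.50 by 1 probe set, with 613 in Smad4 −/− and 869 in Smad4 f/f, so these partners pointed opposite ways. Lsm12 had −0.04, with 77467 in Smad4 −/− and 79861 in Smad4 f/f.

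**Figure D4:**
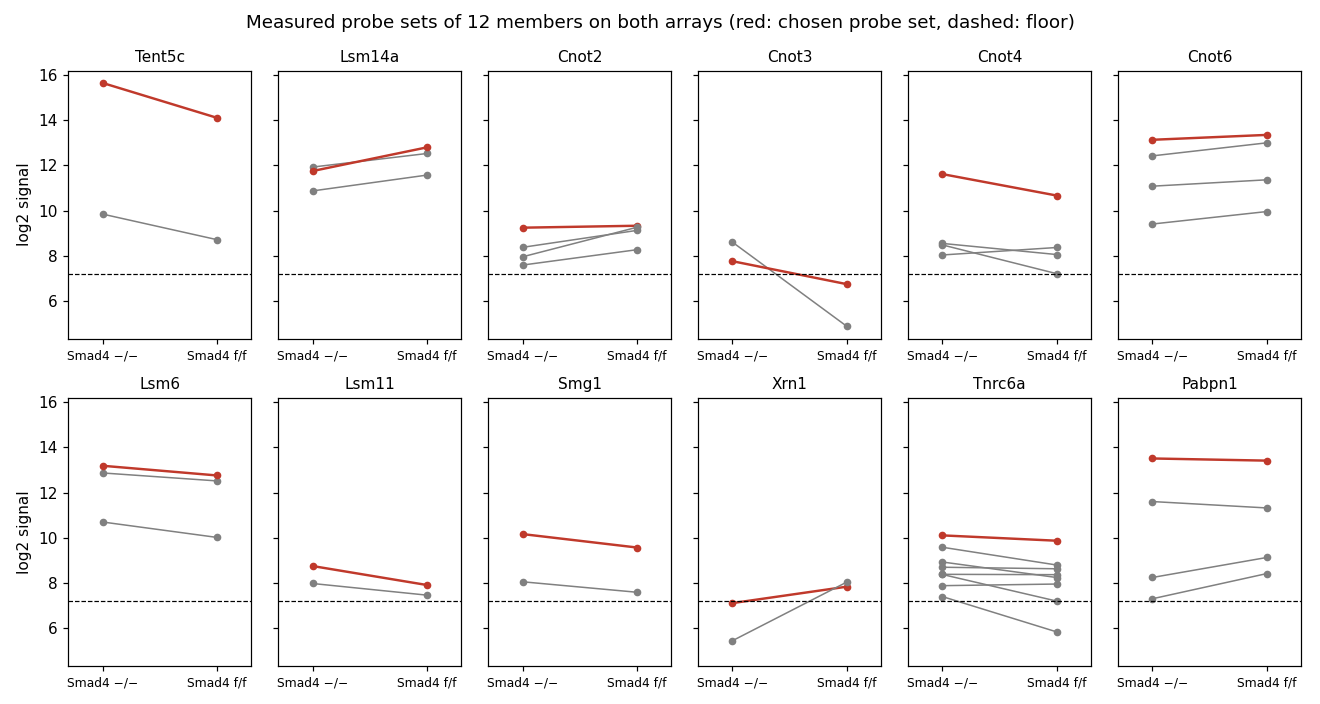
Log2 signal (y axis) of every measured probe set of 12 members on the Smad4 −/− array (left of each panel) and the Smad4 f/f array (right), with the chosen probe set in red and the floor dashed. Lines of Tent5c, Lsm6, Lsm11 and Smg1 all slope down toward Smad4 f/f and those of Lsm14a, Cnot2 and Cnot6 all slope up, while Pabpn1 and Cnot4 hold lines of both kinds.

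The exosome, the barrel-shaped complex that digests RNA from the 3′ end, had no subunit called past 2-fold, where 6.93% of all measured genes were. Of 8 measured, 4 had ratios above 0 and 4 below, with a median log2 ratio of −0.07 (0.03 with the mean of probe sets). Exosc4, a ring subunit, had the highest ratio at the floor used, with 277 in Smad4 −/− and 148 in Smad4 f/f, 1.87-fold higher by 1 measured probe set, and a log2 ratio of 0.09 with the floor at the 75th percentile. Exosc5, another ring subunit, had the lowest, at least 1.47-fold lower, with 132 in Smad4 −/−, below the floor, and 213 in Smad4 f/f. Exosc9 was at least 1.62-fold higher, and its log2 ratio of 1.49 with no floor is above the log2 ratio of 0.91 of Exosc4. Exosc1 and Exosc2 had log2 ratios of 0.36 and 0.19, and Exosc7 and Exosc8 had −0.32 and −0.37. Exosc10, a nuclear catalytic subunit, had −0.45 and at least 0.19 by its other probe set. Exosc3 and Exosc6 lay below the floor. The highest signal of any chosen exosome probe set was 398, in Smad4 f/f for Exosc8, so the group lies near the floor.

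Nonsense-mediated decay removes mRNAs with early stop codons. Of its 6 measured factors, 0 were called past 2-fold, where 6.93% of all measured genes were. Ratios above 0 were seen for 2 of the 6, and the median log2 ratio was −0.17. Smg1, the kinase that phosphorylates UPF1, read 1147 and 266 in Smad4 −/−, against 760 and 193 in Smad4 f/f by its 2 probe sets, log2 ratios of 0.59 and 0.46. Smg6, the endonuclease of the pathway, had the highest ratio, 1.56-fold higher with 428 in Smad4 −/− and 274 in Smad4 f/f. Upf1, the central helicase, read 198 in Smad4 −/− and 271 in Smad4 f/f, the lowest log2 ratio at the floor used, −0.45, which shrinks to −0.06 with the floor at the 75th percentile. Upf2 had −0.22, Smg9 −0.11, and Smg8 lay below the floor on both arrays. Smg5 read 59.1 in Smad4 −/−, below the floor, and 189 in Smad4 f/f, a bound of −0.38 that is −1.67 with no floor, below Upf1.

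In the microRNA silencing group, 0 of 7 measured genes were called past 2-fold, where 6.93% of all measured genes were. The group's median log2 ratio was −0.04 (0.002 with the mean of probe sets). Ago2, the Argonaute with slicer activity, read 369 in Smad4 −/− and 394 in Smad4 f/f, a log2 ratio of −0.10, with −0.34 and 0.44 by its other probe sets. Ago1 had the lowest chosen ratio at the floor used, with 519 in Smad4 −/− and 699 in Smad4 f/f, −0.43 by 1 probe set, and Ago3 had 0.003. The TNRC6 scaffolds, which link Argonaute to the deadenylases, differed among themselves. Tnrc6a had the highest chosen ratio, 0.24 (1102 in Smad4 −/− and 936 in Smad4 f/f), with 8 probe sets from −0.07 to 1.18. Tnrc6b had −0.04, and Tnrc6c had −0.28 and −0.80, reading 358 and 169 in Smad4 −/−, against 435 and 295 in Smad4 f/f.

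Dicer1, which cuts precursor hairpins to microRNAs, was seen near the floor only. Its probe sets read 33.8 and 7.99 in Smad4 −/−, both below the floor, against 148 and 196 in Smad4 f/f, at least 1.02-fold and 1.35-fold lower. With no floor they give −2.13 and −4.62, below Ago1, so the order in this group depends on the floor. Ago4 lay below the floor on both arrays.

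ZFP36 proteins bind AU-rich elements in 3′ untranslated regions and call in CCR4-NOT. Zfp36l2 read 10899 in Smad4 −/− and 8715 in Smad4 f/f, a log2 ratio of 0.32 with other probe sets at −0.20 and 0.62. Zfp36l1 had 0.14 and −0.01. Zfp36 itself, also an immediate early gene, was at least 1.42-fold lower, with 97.0 in Smad4 −/−, below the floor, and 206 in Smad4 f/f, a log2 ratio of −1.09 with no floor.

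Other genes of the same pathways, from a list by function, gave a similar picture. Of 55 measured, 1 passed 2-fold on the Smad4 −/− side and 0 on the lower side. The shares over all measured genes were 3.34% and 3.59%. The median log2 ratio of these 55 was 0.002, with 28 above 0. The one past 2-fold was Patl2, an oocyte relative of the decapping factor Patl1, at least 2.22-fold higher with 322 in Smad4 −/− and 102 in Smad4 f/f, below the floor, by 1 probe set. Parn, a poly(A)-specific ribonuclease, was 1.94-fold lower with 242 in Smad4 −/− and 469 in Smad4 f/f by 1 probe set, which ends in _x_at. Pnrc2, which ties UPF1 to decapping, was 1.82-fold lower (6810 in Smad4 −/− and 12408 in Smad4 f/f) with −0.72 by its second probe set. On the other side, Dis3l2, an exonuclease that digests uridylated RNA, was 1.64-fold higher with 323 in Smad4 −/− and 197 in Smad4 f/f by 1 probe set. Elavl1, which binds and stabilises AU-rich mRNAs, was 1.58-fold higher (11442 in Smad4 −/− and 7251 in Smad4 f/f), with 4 probe sets from −0.01 to 1.02. Parn, Pnrc2, Dis3l2 and Elavl1 were picked after their values were seen, as the largest on either side short of 2-fold.

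Markers of other blood cells stand beside the Tent5c value. For the marker counts below, 3.34% of all measured genes passed 2-fold on the Smad4 −/− side and 3.59% on the lower side. Erythroid markers numbered 7 measured, of which 3 passed 2-fold on the Smad4 −/− side and 0 on the other, with a median log2 ratio of 0.70 and a summed signal of 19448 in Smad4 −/− and 7537 in Smad4 f/f. Without Fech, which makes up most of it, the sum was 5544 in Smad4 −/− and 2986 in Smad4 f/f. Fech, the last enzyme of haem synthesis, was 3.06-fold higher, Alas2, the first enzyme in red cells, 2.40-fold and Slc4a1, the anion exchanger, 2.36-fold. Ermap, Tfrc and Klf1 had log2 ratios of 0.17, −0.61 and −0.31, and Rhag and the haemoglobin gene Hba-a1 lay below the floor on both arrays.

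Lymphocyte markers were mixed. Of 5 measured B cell markers 1 was at least 2-fold higher, Jchain, also a plasma cell gene, at least 3.73-fold with 542 in Smad4 −/− and 136 in Smad4 f/f. Cd79a, Cd79b, Ms4a1 and Blk had log2 ratios of 0.78, 0.21, −0.01 and −0.84, and Pax5 lay below the floor on both arrays. The B cell summed signal was 4115 in Smad4 −/− and 3676 in Smad4 f/f. Of 5 measured T and NK cell markers 1 was at least 2-fold higher, Cd28 at 2.74-fold. In this list 4 had ratios above 0, with a median log2 ratio of 0.25. Cd2, Cd8a and Nkg7 had 0.39, at least 0.25 and 0.02, while Cd3d had −0.98. Cd3e, Cd3g and Cd4 lay below the floor on both arrays. The summed signal was 14686 in Smad4 −/− and 6541 in Smad4 f/f with Cd28, and 1861 in Smad4 −/− and 1856 in Smad4 f/f without it. The part of these cells in the Tent5c value was not tested.

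**Figure D5:**
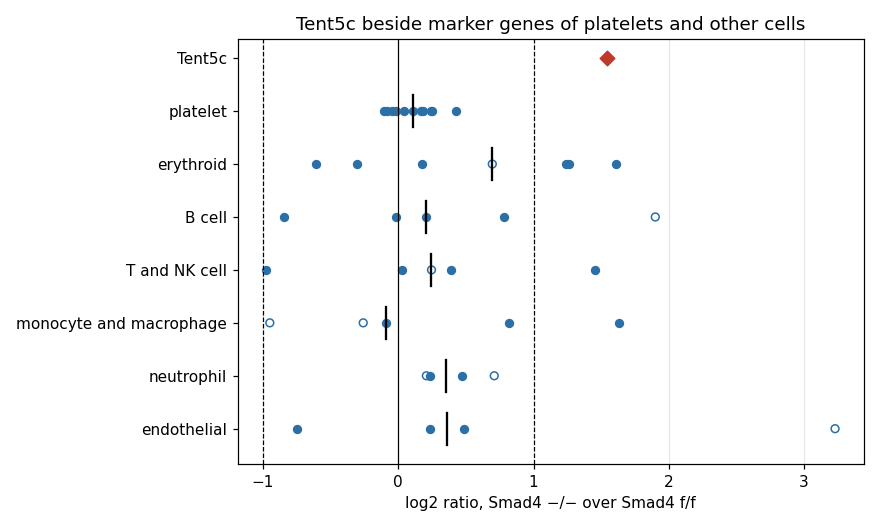
Log2 ratio of Smad4 −/− over Smad4 f/f (x axis) of Tent5c (red diamond) and of measured marker genes of platelets and other cells (blue circles, open where 1 side is at the floor), with list medians as black bars and 2-fold dashed. Tent5c at 1.54 lies outside the platelet markers, which span −0.11 to 0.43. It lies above the highest T and NK cell marker (1.45) and the highest neutrophil ratio (0.71, a bound). It lies within the ranges of erythroid, B cell, monocyte and macrophage, and endothelial markers. Their highest at the floor used are Fech at 1.61, Jchain at 1.90 (a bound), Csf1r at 1.64 and Flt1 at 3.23 (a bound).

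Markers of myeloid and endothelial cells stand beside it too. Of 5 measured monocyte and macrophage markers, 1 was at least 2-fold higher, Csf1r at 3.11-fold, with disagreement among its 3 probe sets, and the summed signal was 132310 in Smad4 −/− and 140543 in Smad4 f/f. Nearly all of that sum is Lyz2, and without it the sum was 1051 in Smad4 −/− and 820 in Smad4 f/f. Csf1r, with 518 in Smad4 −/− and 167 in Smad4 f/f, is the largest part of that Smad4 −/− value. Adgre1 had a log2 ratio of 0.82 and Lyz2 −0.09. Mpeg1 and Cx3cr1, below the floor in Smad4 −/−, had bounds of −0.95 and −0.26. The list median was −0.09. Of 4 measured neutrophil markers, S100a8 and S100a9 had log2 ratios of 0.23 and 0.47. Ltf and Ngp, below the floor in Smad4 f/f, had bounds of 0.21 and 0.71 and could only point toward Smad4 −/−. Elane, Mpo and Camp lay below the floor on both arrays. The neutrophil summed signal was 7482 in Smad4 −/− and 5774 in Smad4 f/f. Of 4 measured endothelial markers, 1 was at least 2-fold higher, Flt1 at least 9.38-fold, with disagreement among its 4 probe sets. Kdr, Cdh5 and Robo4 had log2 ratios of 0.49, 0.23 and −0.74. The endothelial summed signal was 3474 in Smad4 −/− and 1761 in Smad4 f/f, or 2112 in Smad4 −/− and 1686 in Smad4 f/f without Flt1. Sums that leave out a marker were chosen after seeing the data.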

How the data were processed

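Total RNA of washed platelets was labelled with biotin by a 3′ amplification kit for Affymetrix mouse arrays, per the labels' protocols. Each deposited value is a log2 signal of 1 probe set on 1 array, and MAS5 is named with no version per the submitters' processing notes. From the values, antilogs have the same 2% trimmed mean of 500.01 on both arrays. Detection calls were not used here, and scanner files were not analysed here.

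Of 45101 probe sets, 64 are controls, 34945 have 1 symbol, 932 several and 9160 none. The 5 probe sets that pair a member with another gene were left out. All 194 member probe sets matched a RefSeq gene table (GRCm38.p6), and 0 symbols changed. At or above the floor lay 38.5% of probe sets in Smad4 −/− and 40.0% in Smad4 f/f. A gene counts as measured if any of its probe sets reaches the floor on an array, and its value was chosen among those by mean log2 signal over both arrays. Called means past 2-fold.

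Named with full values were members past 2-fold, those with at least 2 agreeing probe sets and a mean log2 ratio of at least 0.5 in size, and the highest and lowest of each role. Members and lists were chosen with earlier results of these data known. Alternatives were 3 scalings (median centring, quantile, loess), no floor or one at another percentile (50th, 75th), averaging a gene's probe sets, leaving out _s_at and _x_at, 1.5-fold and 3-fold, and agreement of probe sets. The steps were tested on simulated data whose known shifts lay only in probe sets well above the floor, so floored ratios were not covered. Python 3.11.15, pandas 2.3.3 and statsmodels 0.14.6 were used.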

Additional observations from a re-analysis of the deposited data

How the results depend on the processing

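Counts past 2-fold moved with the floor and the size rule. Members higher in Smad4 −/− numbered 2 as reported, 4 with the floor at the 50th percentile or with none, 1 at the 75th, 8 at 1.5-fold and 0 at 3-fold. Members lower numbered 2 as reported, 1 at the 75th percentile or with the mean of probe sets, 5 with no floor, 6 at 1.5-fold and 0 at 3-fold. Of all measured genes, 380 were higher as reported, 676 at the 50th percentile, 175 at the 75th, 1219 with no floor, 1323 at 1.5-fold and 57 at 3-fold. Lower were 409 as reported, with 781, 146, 1415, 1526 and 48 under the same settings. The base is 11380 measured genes except with the floor at the 50th or 75th percentile, where the number measured differs. The median of the decapping group was −0.54 as reported and −0.030 at the 75th percentile, and the other medians stayed within the yardstick. Of 205 values of the 26 named members under alternatives, 10 moved by more than the yardstick, 7 with the floor and 3 with the choice of probe set, and 0 members past 2-fold changed sign. Tent5c ranged from 1.34 to 1.55 on the log2 scale. Signal over background limits Lsm1, Btg4, Xrn1, Dicer1 and the exosome, which lie near the floor. No paired analysis was possible because each genotype has 1 array.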
